A study of Mus musculus with 23 samples.

Results

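The caseins and whey proteins of mouse milk are described here through 7 genes: Csn1s1, Csn2, Csn1s2a, Csn1s2b, Csn3, Wap and Lalba. They were chosen by symbol, as every probe set (a group of short probes that measures 1 transcript) for which the array annotation lists a member as the only gene. This gave 13 probe sets of the 34945 with 1 gene symbol, and 7 of 18193 genes. Csn1s2a was measured by 5 probe sets, Csn2 and Csn3 by 2 each, and the others by 1. All 7 genes passed the filter on low values that left 15378 genes for testing.

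The 23 arrays carried messenger RNA of epithelial cell preparations from mammary glands of C57BL/6 females, with no transgene or treatment named for any group. Virgin females were 3 or 9 weeks old, and pregnant females were at day 10, day 16 or day 19 of pregnancy. Retired breeders are females that have finished breeding, and their age is not given. Each stage except day 19 was sampled as cells labelled stem cells, luminal progenitor cells and mature luminal cells, while day 19 was sampled as mature luminal cells alone. This gave 16 groups, of which 7 had 2 arrays and 9 had a single array. The surface markers used for the purification are not given in the sources used here, nor is it stated that a group's arrays came from separate animals. Thus p-values measure only how far these samples scatter, which may be technical scatter.

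Caseins are the phosphorylated proteins that carry calcium phosphate in milk as micelles. Csn1s1 encodes the alpha-s1 casein, Csn2 the beta casein, and Csn1s2a and Csn1s2b the alpha-s2-like caseins (in the mouse also named gamma and delta). Csn3 encodes kappa casein, which coats and stabilises the micelle. Wap encodes whey acidic protein, a small secreted protein of rodent milk, and Lalba encodes alpha-lactalbumin, which turns a galactosyltransferase into lactose synthase. In the mammary gland these genes are known as targets of prolactin, which acts through the kinase Jak2 and the factors Stat5a and Stat5b, together with glucocorticoids and the factor Elf5.

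In the RefSeq annotation of the mouse genome (GRCm38.p6) the 5 casein genes lie in a cluster on chromosome 5. Among protein-coding genes the order is Csn1s1, Csn2, Csn1s2a, Csn1s2b, Prr27, Odam, BC037156 and Csn3. Wap lies between Tbrg4 and Ramp3 on chromosome 11, and Lalba is on chromosome 15. The table of RefSeq promoters held 5 of the 7 members. The 250 bases before the annotated start are shown for both caseins whose pregnant and virgin arrays did not overlap on the probe set used, Csn1s1 (plus strand, chr5:87665958-87666207) and Csn2 (minus strand, chr5:87699426-87699675), and for Wap (minus strand, chr11:6638650-6638899), whose group levels had the widest gap. Capitals mark every match to TTCNNNGAA, palindromic letters known as the core of Stat5 sites, or to TTCNNNNGAA, the same letters with a longer spacer.

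Csn1s1: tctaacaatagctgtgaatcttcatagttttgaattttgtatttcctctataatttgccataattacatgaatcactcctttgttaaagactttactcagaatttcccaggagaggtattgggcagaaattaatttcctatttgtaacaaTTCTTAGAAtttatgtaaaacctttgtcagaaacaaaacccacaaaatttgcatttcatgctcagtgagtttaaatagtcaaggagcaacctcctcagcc
Csn2: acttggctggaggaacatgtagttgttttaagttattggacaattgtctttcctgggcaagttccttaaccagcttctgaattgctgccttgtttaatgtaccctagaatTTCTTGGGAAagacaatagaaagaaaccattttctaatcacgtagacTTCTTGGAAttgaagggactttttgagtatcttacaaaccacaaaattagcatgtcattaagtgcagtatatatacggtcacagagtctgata
Wap: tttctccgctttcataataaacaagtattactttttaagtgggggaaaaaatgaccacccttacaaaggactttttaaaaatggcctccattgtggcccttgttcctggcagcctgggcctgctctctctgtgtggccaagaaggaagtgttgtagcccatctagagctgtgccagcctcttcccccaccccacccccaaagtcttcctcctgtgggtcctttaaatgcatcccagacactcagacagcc

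Positions are counted from the annotated start, with -1 as the base before it. Csn1s1 held TTCTTAGAA from -100 to -92. Csn2 held TTCTTGGGAA from -140 to -131 and TTCTTGGAA from -93 to -85, and TATATA at -26. The windows of Wap, Lalba and Csn1s2a held neither TTCNNNGAA nor TTCNNNNGAA. Both strands were searched. Of 32817 promoter windows of the same length, 7.01% held TTCNNNGAA and 5.85% held TTCNNNNGAA. A match describes letters and is no measurement of binding.

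Stem preparations carried the markers of the basal layer. The summed log2 level of 12 basal and myoepithelial genes was 123.71 to 153.25 on the 8 stem arrays, 91.79 to 135.90 on the 7 luminal progenitor arrays and 88.31 to 119.08 on the 8 mature luminal arrays. The sum over 11 luminal genes was 106.89 to 124.92 on stem arrays, so luminal transcripts were measured there too, against 119.14 to 130.70 in luminal progenitors and 121.59 to 131.65 in mature luminal cells. The luminal progenitor arrays of day 10 and day 16 stood apart from the other 5. Their sums over 10 fibroblast and stromal genes were 97.15 and 102.86, against 66.95 to 92.20, and over 10 leukocyte genes 83.07 and 78.03, against 36.53 to 63.16. No listed marker gene was at 0 on either of them. Averages of the milk protein genes that include these 2 arrays are therefore also given without them. Averages of the other gene lists, and the correlations over group means, are given with them alone. As a sign of RNA quality, Gapdh was brighter on its 3′ than on its 5′ probe set on all arrays, by at most 2.72 log2 except on the arrays of 3-week mature luminal cells (5.16) and retired breeder stem cells (3.77).

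Levels are the deposited log2 values of the probe set with the highest mean per gene. Levels of different genes come from different probes and were not compared. The highest value on an array lay between 14.09 and 14.28, and 6 of the 7 genes came within 1 log2 unit of it on at least 1 array. The spacing of the hybridisation controls, spiked in at rising amounts, was 0.89 (BioC over BioB), 1.19 (BioD over BioC) and 0.99 (Cre over BioD) log2 units at the median array.

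Csn1s1 was lower in virgins than in pregnancy, where most arrays were near the top of the scale. In 9-week virgins it read 3.65 and 6.93 in mature luminal cells, 6.70 and 10.33 in luminal progenitors, and 5.39 and 7.16 in stem cells. At day 10 it read 13.42 and 13.59 in mature luminal cells, 14.11 in luminal progenitors, and 11.59 and 11.94 in stem cells. At day 16 it read 14.22 in mature luminal cells, 13.28 in luminal progenitors and 13.72 in stem cells, and at day 19 it read 14.23. All 9 pregnant arrays (11.59 to 14.23) lay above all 11 virgin arrays (3.65 to 10.33), which held for 2 of the 7 genes, Csn1s1 and Csn2, and for 0.078% of all genes tested. Ordered by mean level, the 16 groups ran from mature luminal cells of day 19 (14.23) and day 16 (14.22) to mature luminal cells of 3-week virgins. Only 2 of the 15 steps in that order exceeded the pooled SD between arrays of a group (1.49 log2, 7 groups of 2). They were the step from day-10 stem cells to retired breeder stem cells (1.99) and the step from luminal progenitors to stem cells of 9-week virgins (2.24).

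On the brighter of its 2 probe sets, Csn2 was higher on every pregnant array than on any virgin array, with little room between them. The 9 pregnant arrays read 12.17 to 13.95 (median 13.69) and the 11 virgin arrays 2.07 to 12.09 (median 4.92). The highest virgin value belonged to 1 of the 2 luminal progenitor arrays of 9-week virgins, and the other read 4.56. Mature luminal cells read 3.28 and 9.39 in 9-week virgins, 13.25 and 13.71 at day 10, 13.95 at day 16 and 13.81 at day 19, so the pregnant arrays agreed to within 0.70 log2 while the virgin pair lay 6.11 apart. Stem cells read 2.07 and 9.33 in 9-week virgins, 12.17 and 12.95 at day 10 and 13.69 at day 16. Because such pairs differed so much, the pooled SD was 3.30 log2, and none of the 15 steps between neighbouring groups exceeded it. Its 2 probe sets gave differences of the same sign in all 3 comparisons of mature luminal cells with 9-week virgins, with 7.14 and 9.03 log2 at day 10. On the second probe set pregnant arrays (10.55 to 13.99) and virgin arrays (1.53 to 10.75) overlapped, through a day-10 stem array and the same luminal progenitor array of 9-week virgins.

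Csn1s2a followed a similar course on its main probe set. Mature luminal cells read 3.16 and 8.41 in 9-week virgins, 13.06 and 13.74 at day 10, 14.18 at day 16 and 14.12 at day 19. Luminal progenitors read 4.91 and 10.95 in 9-week virgins, 14.13 at day 10 and 13.49 at day 16, and stem cells read 4.84 and 6.83, then 10.76 and 12.70, then 13.98. The pregnant arrays (10.76 to 14.18) overlapped the virgin ones (3.16 to 10.95) through a single day-10 stem array, and 8 of 9 lay above every virgin array. Its 5 probe sets did not all move alike. In mature luminal cells at day 10, the differences from 9-week virgins were 7.62 and 8.60 log2 on the 2 brightest, but -0.36 and -1.21 on 2 others, and the fifth (0.08 to 4.19 over all arrays) did not pass the filter. At day 16 those 2 dimmer probe sets were higher by 5.40 and 3.65 log2, and at day 19 by 2.99 and 0.30.

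Csn1s2b was highest late in pregnancy. It read 1.85 and 5.92 in mature luminal cells of 9-week virgins, 5.33 and 6.35 at day 10, 9.84 at day 16 and 13.70 at day 19. The day-19 array stood 3.52 log2 above the next group (day-10 luminal progenitors, 10.18), more than the pooled SD of 1.96. In stem cells it read 0.93 and 2.91 in 9-week virgins, 2.99 and 4.55 at day 10 and 7.35 at day 16. In luminal progenitors it read 1.72 and 7.16 in 9-week virgins, 10.18 at day 10 and 7.88 at day 16. In all, 5 of 9 pregnant arrays lay above every virgin array (0.93 to 7.16).

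Csn3 varied little on its main probe set, which was near the top of the scale on many arrays. It ranged from 11.60 in mature luminal cells of 3-week virgins to 14.06 at day 19, a span of 2.46 log2. The 11 virgin arrays read 11.60 to 13.92 and the 9 pregnant arrays 12.35 to 14.06, and only 2 pregnant arrays lay above every virgin one. Luminal progenitors of 9-week virgins (13.48 and 13.92) overlapped day-10 mature luminal cells (13.85 and 13.61). In stem cells it read 12.32 and 12.36 in 9-week virgins, 12.35 and 12.68 at day 10 and 13.36 at day 16. Its pooled SD was 0.30 log2. The 2 steps between groups above that were from luminal progenitors of 3-week virgins to mature luminal cells of retired breeders (0.76), and from mature luminal cells of 9-week to those of 3-week virgins (0.52). On 11 of the 23 arrays Csn3 was within 1 log2 unit of the highest value of its array, so room for a rise was short there. A second, dim Csn3 probe set spanned 6.48 log2 (1.99 to 8.47). In mature luminal cells its differences from 9-week virgins were 1.23 at day 10, 4.05 at day 16 and 3.47 at day 19, against 1.61, 1.83 and 1.94 on the main one. In the average of pregnancy over 9-week virgins they were 2.55 and 0.76 log2, so the small Csn3 differences given below belong to the brighter probe set.

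Wap showed the widest gap of the 7. On 4 pregnant arrays Wap stood high, with 13.57 at day 19, 13.14 at day 16 in mature luminal cells, 12.74 at day 10 in luminal progenitors and 12.19 at day 16 in stem cells. The next group, day-10 mature luminal cells (7.24 and 7.32), was 4.91 log2 lower, against a pooled SD of 0.87. Day-16 luminal progenitors read 6.94 and day-10 stem cells 6.59 and 5.17, while the 11 virgin arrays read 2.45 to 6.21. In 9-week virgins Wap read 3.74 and 6.21 in mature luminal cells, 2.98 and 4.35 in luminal progenitors and 2.58 on both stem arrays. The 1 pregnant array that did not exceed every virgin array was a day-10 stem array.

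Lalba was higher at each later day of pregnancy in mature luminal cells. It read 2.90 and 4.58 in 9-week virgins, 6.20 and 7.79 at day 10, 10.89 at day 16 and 11.82 at day 19. In stem cells it read 4.26 and 2.09, then 7.08 on both day-10 arrays, then 9.02 at day 16. In luminal progenitors it read 3.03 and 7.82, then 9.95 at day 10 and 8.33 at day 16. The 9 pregnant arrays (6.20 to 11.82) overlapped the virgin arrays (2.09 to 7.82), and none of its 15 steps between groups exceeded the pooled SD of 1.55.

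**Figure D1:**
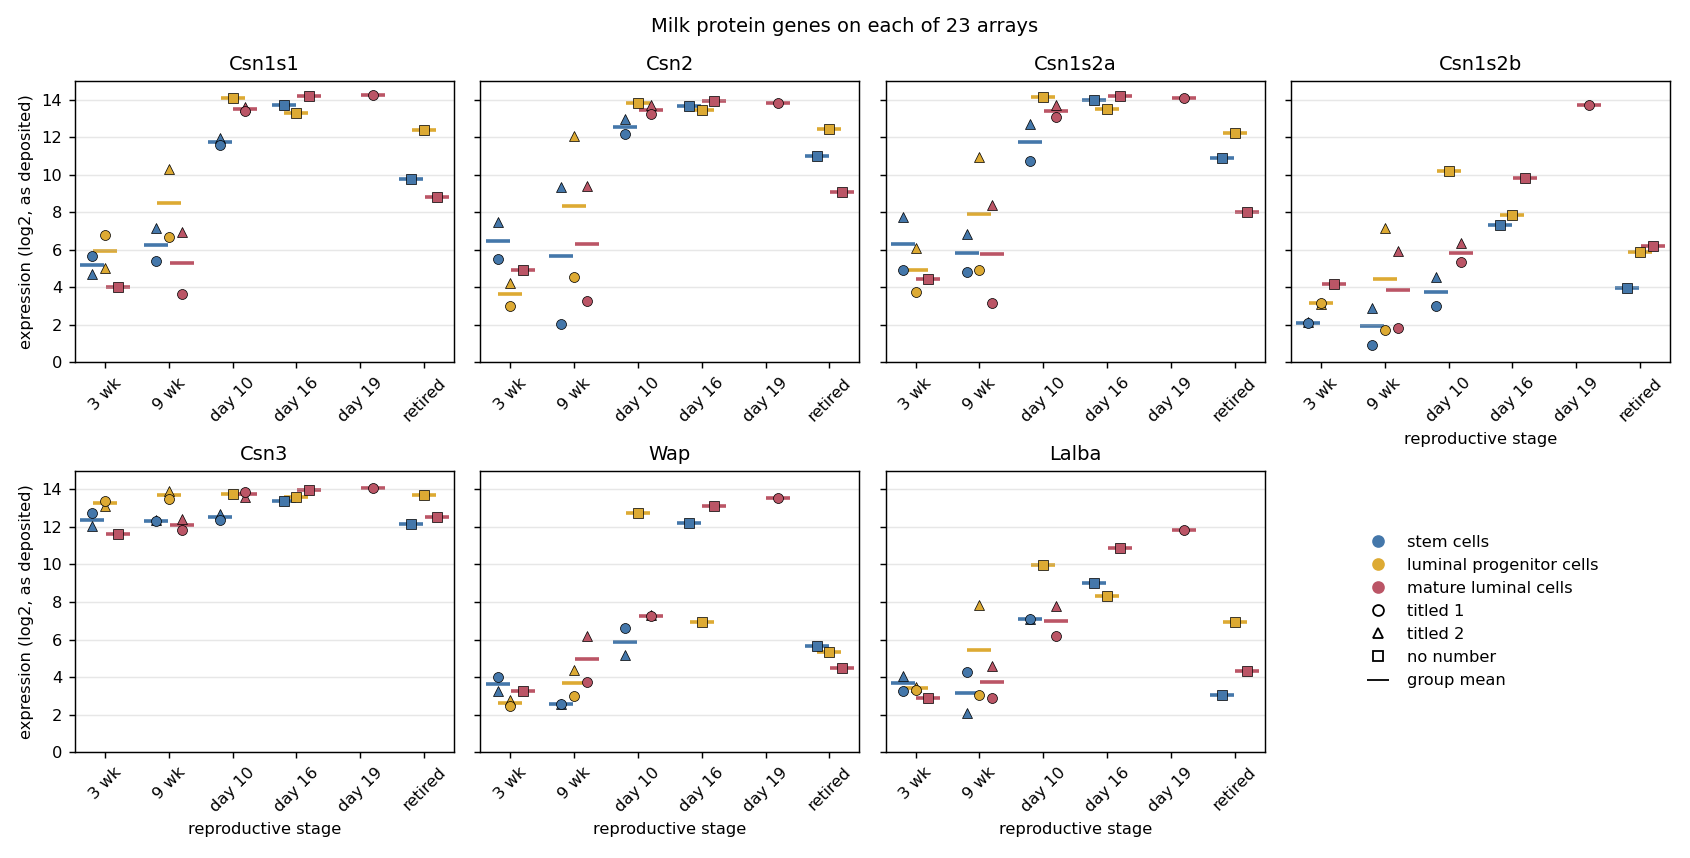
Log2 expression as deposited (vertical axis) of each milk protein gene on each of the 23 arrays, by reproductive stage (horizontal axis). Colours stand for the 3 cell preparations, marker shapes for the number in the array's title, and horizontal bars for group means. Csn3 lies between 11.60 and 14.06 throughout, while Wap is at 12.19 or above on 4 pregnant arrays and at 7.32 or below on all other arrays.

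The first comparison asked how milk protein transcripts of mature luminal cells differ between pregnancy and the 9-week virgin state. At day 10, 2 of the 7 genes were higher at a Benjamini-Hochberg adjusted p under 0.05 (limma, over all genes tested), against 0.156% of all genes tested. Csn1s1 rose by 8.21 ± 1.20 log2 (SE, adjusted p = 0.0127) and Csn3 by 1.61 ± 0.29 (adjusted p = 0.0334). With every probe set tested on its own (limma), the main Csn3 probe set was at adjusted p = 0.0501. The dim Csn3 probe set did not pass at day 10, day 16 or day 19. Csn1s2a differed by 7.62 ± 1.94 (adjusted p = 0.131) and Csn2 by 7.14 ± 2.57 (adjusted p = 0.354), with wider errors. Wap (2.31 ± 0.84), Lalba (3.25 ± 1.30) and Csn1s2b (1.96 ± 1.60) did not pass. With the number in the array titles as a block, the 9-week and day-10 arrays being paired by it, Csn1s2a (7.62 ± 0.999, adjusted p = 0.00169) and Csn2 (7.14 ± 1.59, adjusted p = 0.0266) also passed, which made 4 of 7. The share of all genes called under the block is not given here, and 0.156% belongs to the fit without it. In the fit without the block, neither the Csn1s1 nor the Csn3 call held when each array was left out in turn. Csn1s1 was at adjusted p = 0.0744 without the 9-week array titled 1, and at 0.0994 and 0.117 without either day-10 array of these cells. Csn3 lost its call without any of 8 arrays, namely both luminal progenitor arrays of 3-week virgins, both mature luminal arrays of 9-week virgins and all 4 numbered day-10 arrays (adjusted p 0.0506 to 0.285), and also when each array was centred on its median (0.160).

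At day 16, 4 of 7 genes were higher in mature luminal cells, against 0.371% of all genes tested. Csn1s1 rose by 8.93 ± 1.48 log2 (adjusted p = 0.0104), Wap by 8.16 ± 1.03 (adjusted p = 0.0020), Lalba by 7.15 ± 1.59 (adjusted p = 0.0436) and Csn3 by 1.83 ± 0.35 (adjusted p = 0.0218). Csn1s2a (8.39 ± 2.38), Csn2 (7.62 ± 3.15) and Csn1s2b (5.96 ± 1.96) differed in the same direction with adjusted p of 0.109, 0.312 and 0.180. With unnumbered arrays taken as number 2, a block on the number added Csn1s2a (6.89 ± 1.24, adjusted p = 0.00587). How many of all genes were called under that block is not given here, and 0.371% belongs to the fit without it. The calls of Csn1s1 and Wap held in all 22 fits that left out 1 array. Without the 9-week mature luminal array titled 1, Csn3 was at adjusted p = 0.107 and Lalba at 0.191, and 9 further arrays each took Lalba past 0.05 when left out (highest adjusted p 0.0739). These were the 9-week mature luminal array titled 2 and both arrays of day-10 mature luminal cells, day-10 stem cells, 3-week stem cells and 3-week luminal progenitors.

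At day 19, 5 of 7 genes were higher, against 0.351% of all genes tested. Csn1s2b rose by 9.81 ± 1.96 log2 (adjusted p = 0.0382), Csn1s1 by 8.94 ± 1.48 (adjusted p = 0.0175), Wap by 8.60 ± 1.03 (adjusted p = 0.00274), Lalba by 8.08 ± 1.59 (adjusted p = 0.0363) and Csn3 by 1.94 ± 0.35 (adjusted p = 0.0255). Csn1s2a (8.34 ± 2.38, adjusted p = 0.153) and Csn2 (7.47 ± 3.15, adjusted p = 0.398) did not pass. With the number as a block they passed too, at 9.84 ± 1.25 (adjusted p = 0.000781) for Csn1s2a and 9.28 ± 1.99 (adjusted p = 0.0177) for Csn2, so all 7 were higher. The share of all genes called under the block is not given here, and 0.351% belongs to the fit without it. Without the 9-week mature luminal array titled 1, Csn1s2b was at adjusted p = 0.118, Lalba at 0.117 and Csn3 at 0.0897, while Csn1s1 and Wap held in all 22 leave-one-out fits. The 9-week mature luminal array titled 2 took Lalba to 0.104, and both arrays of 3-week stem cells, 3-week luminal progenitors and day-10 stem cells took Lalba and Csn1s2b to between 0.0517 and 0.0619, as did both day-10 mature luminal arrays for Csn1s2b. With each array centred on its median, Csn3 was at adjusted p = 0.104 at day 16 and 0.0807 at day 19. The day-19 group is a single array.

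Mature luminal cells at day 10 were close to the later levels for some members and far below them for others. At day 10 both arrays were within 1.12 log2 of the gene's highest mature luminal level for Csn1s1, Csn2, Csn1s2a and Csn3. These 4 lay near the top of the array scale already, so a further rise could not have been read in full. Csn1s2b was then 8.37 and 7.35 log2 below its highest level, Wap 6.33 and 6.25 below, and Lalba 5.62 and 4.03 below. Between day 10 and day 19, none of the 7 passed (limma, all 7 higher, 3 at an unadjusted p under 0.05, and 970 of all genes). The differences were 7.86 ± 1.96 for Csn1s2b (adjusted p = 0.314), 6.29 ± 1.03 for Wap (adjusted p = 0.177) and 4.83 ± 1.59 for Lalba (adjusted p = 0.477), and 0% of all genes tested were called. With the title number as a block, Csn1s2b (8.86 ± 1.42, adjusted p = 0.0217) and Wap (6.44, adjusted p = 0.0215) passed. The 0% belongs to the fit without the block, and the share called with it is not given here. Csn1s1, Csn1s2a, Csn2 and Csn3 differed by 0.33 to 0.73 log2.

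In stem cell preparations, Wap was the member that passed. At day 16 it rose by 9.61 ± 1.03 log2 (adjusted p = 0.00724), from 2.58 on both 9-week arrays to 12.19, and it was the only one of the 7 called, against 0.013% of all genes tested. The other 6 differed by 1.02 (Csn3) to 8.14 log2 (Csn1s2a) with adjusted p of 0.131 to 0.460. At day 10 none of the 7 passed (limma, 5 at an unadjusted p under 0.05, and 1391 of all genes), against 0.0065% of all genes called higher, with differences of 6.86 ± 2.57 for Csn2 and 5.49 ± 1.20 for Csn1s1. With the title number as a block, Csn1s1 (5.49 ± 1.05, adjusted p = 0.0289) and Csn1s2a (5.89 ± 0.999, adjusted p = 0.0190) passed at day 10. With unnumbered arrays as number 2 they also passed at day 16 (0.0376 and 0.0368). How many of all genes were called under these blocks is not given here. Without the 9-week stem array titled 1, Wap at day 16 was at adjusted p = 0.0563. The summed luminal marker level of the pregnant stem arrays was 110.23 to 114.22, within the 106.89 to 124.92 of the 4 virgin stem arrays. That sum includes Esr1 and Pgr, lower in the average of pregnancy given below, and Elf5, higher there. It therefore does not measure luminal cell content alone. The sum over 10 endothelial genes, none of them at 0, was 62.87 to 69.88 on the pregnant stem arrays and 93.0 to 113.72 on the virgin ones, with median differences from 9-week virgins of -2.92 log2 at day 10 and -2.54 at day 16 and 0 of 10 called (limma, 7 and 6 at an unadjusted p under 0.05). Its part in the result was not tested. In such preparations fewer cells of a type and less RNA per cell cannot be told apart.

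In luminal progenitors, Wap was again the member that passed, but at day 10. It rose by 9.07 ± 1.03 log2 (adjusted p = 0.00616), from 2.98 and 4.35 to 12.74, 1 of 7 against 0.0455% of all genes tested. Without the 9-week luminal progenitor array titled 1 it was at adjusted p = 0.0548. At day 16 none of the 7 passed (limma, 3 at an unadjusted p under 0.05, and 1020 of all genes), and 0% of all genes were called. Wap then read 6.94, a difference of 3.27 log2 (adjusted p = 0.495). All 7 genes were higher on the day-10 than on the day-16 luminal progenitor array, by 0.12 (Csn3) to 5.80 log2 (Wap), the reverse of the order in both other cell types. Each is a single array and this order has no replicate check. The labels of these 2 arrays were taken as given and could not be checked, so the day to which the Wap call belongs rests on them. Besides the high stromal and leukocyte sums given above, they had the highest basal sums of the luminal progenitors (122.44 and 135.90, against 91.79 to 116.51). Their luminal sums were the lowest of the luminal progenitors (119.14 and 122.95, against 127.38 to 130.70), which was not particular to them. In mature luminal cells that sum was 129.05 and 124.41 at day 10, 121.59 at day 16 and 123.16 at day 19. Virgin arrays of those cells read 128.42 to 130.19. The luminal list holds Esr1 and Pgr, lower in the average of pregnancy given below, and Elf5, higher there. In luminal progenitors the median difference of the 12 basal genes from 9-week virgins was 2.37 log2 at day 10 and 3.38 at day 16. The part of these markers in the Wap call and in the order was not tested.

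**Figure D2:**
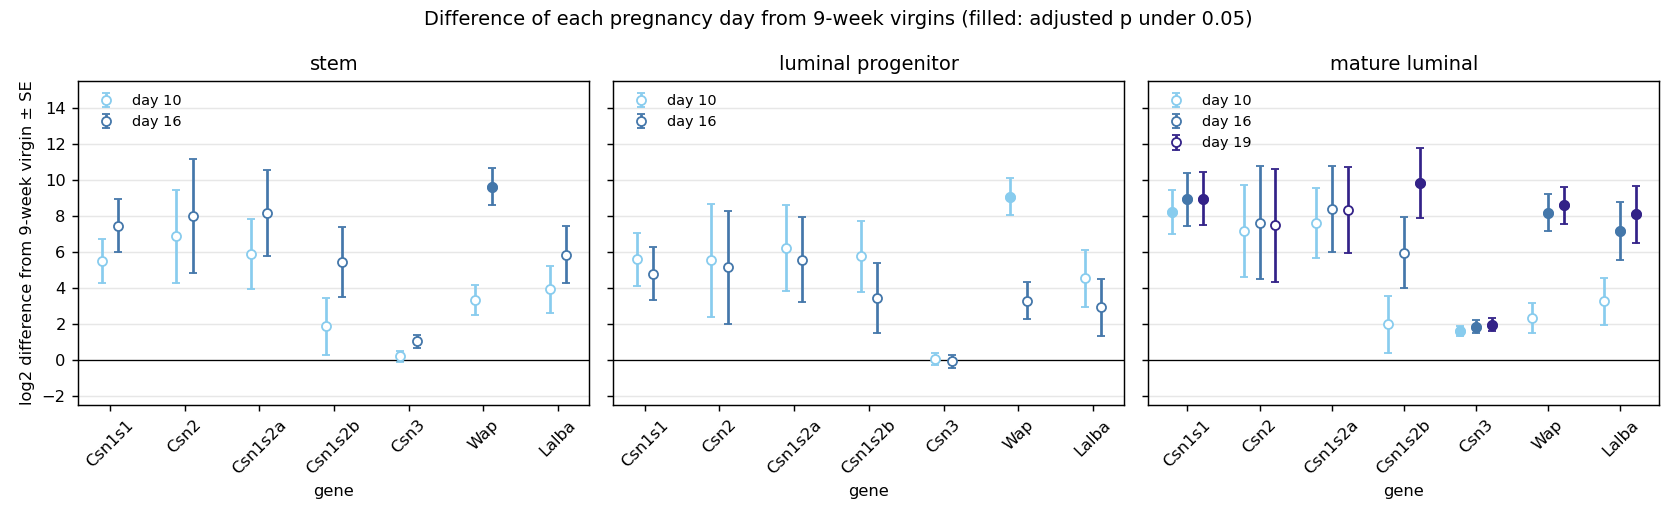
Difference in log2 expression from 9-week virgins (vertical axis) for each gene (horizontal axis), by cell preparation and day of pregnancy. Points are limma estimates, bars are standard errors, and filled points have an adjusted p under 0.05. The filled point of stem cells is Wap at day 16 (9.61) and that of luminal progenitors is Wap at day 10 (9.07).

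Whether the pregnancy difference itself differed between mature luminal and stem cells was tested with an interaction term. No member passed at day 10 (limma, 1 at an unadjusted p under 0.05, and 869 of all genes), with 0% of all genes called. None passed at day 16 either (limma, 0 at an unadjusted p under 0.05, and 720 of all genes), with 0.0065% of all genes called. The calls made in mature luminal cells and not in stem cells were thus not shown to differ between the cell types.

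Averaged over the 3 cell types, the day-10 and day-16 arrays were higher than 9-week virgins for all 7 genes, against 3.77% of all genes tested. Csn1s2a rose by 6.97 ± 1.07 log2 (adjusted p = 0.00375), Csn1s1 by 6.74 ± 0.67 (adjusted p = 0.00020), Csn2 by 6.71 ± 1.42 (adjusted p = 0.0167) and Wap by 5.96 ± 0.46 (adjusted p = 3.74e-05). Lalba rose by 4.60 ± 0.72 (adjusted p = 0.00387), Csn1s2b by 4.06 ± 0.89 (adjusted p = 0.0191) and Csn3 by 0.76 ± 0.16 (adjusted p = 0.0152). Their median was 5.96, and that of all genes 0.10. Csn1s1, Csn1s2a, Wap and Lalba held in all 23 leave-one-out fits. Without both luminal progenitor arrays of pregnancy the other 6 still passed, and Csn1s2b was at 3.80 log2 (adjusted p = 0.0788), and leaving out either alone took it to 0.0789 and 0.0784. The average without the day-16 mature luminal array rests on stem cells and luminal progenitors. It had 4 of 7 called, with Csn3 at 0.28 (adjusted p = 0.437), Csn2 at adjusted p = 0.0889 and Csn1s2b at 0.0800. The share of all genes called in that fit is not given here. Csn2 was also at 0.0653 without the day-16 stem array, Csn1s2b at 0.0538 without the 9-week mature luminal array titled 1, Csn3 at 0.0509 without the 9-week luminal progenitor array titled 1, and Csn3 at 0.0770 with each array centred on its median.

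Between day 10 and day 16 the same average showed no called member (limma, 1 at an unadjusted p under 0.05, and 212 of all genes), and 0% of all genes were called. The differences ran from 0.32 (Csn3) to 2.12 log2 (Wap), all towards day 16. Without the 2 luminal progenitor arrays of pregnancy, Wap rose by 6.08 ± 0.73 log2 (adjusted p = 0.0153). The value was 6.08 as well without the day-10 luminal progenitor array alone (adjusted p = 0.0152) or the day-16 one alone (adjusted p = 0.0141), since the average then drops that cell type.

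Arrays of the same group of 9-week virgins disagreed on the milk protein genes. In luminal progenitors the array titled 2 was higher than that titled 1 for all 7 genes, by 0.44 (Csn3) to 7.53 log2 (Csn2). In mature luminal cells it was higher for all 7, by 0.60 to 6.11 log2 (Csn2), and in stem cells for 5 of 7, with Csn2 higher by 7.26 log2 and Lalba lower by 2.17. Of all genes tested, 0.0195%, 0.0455% and 0.0650% were at least as far up on the array titled 2 as Csn2 in luminal progenitors, mature luminal cells and stem cells. Both groups of 3-week virgins with 2 arrays had 4 of 7 genes higher on the array titled 2. What the number stands for is not given in the labels. The summed level of the 10 leukocyte genes was higher on the array titled 2 in all 7 groups with 2 arrays. In 9-week virgins it was 60.40 against 40.56 in luminal progenitors, 55.25 against 43.82 in mature luminal cells and 51.95 against 46.12 in stem cells. At day 10 it was 63.91 against 38.51 in mature luminal cells and 65.78 against 40.58 in stem cells. There the 7 milk protein genes differed by -0.24 to 1.59 and by -1.42 to 1.94 log2. In 3-week virgins the leukocyte sum was 61.23 against 36.53 in luminal progenitors and 61.37 against 53.53 in stem cells. Its part in the disagreement was not tested.

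**Figure D3:**
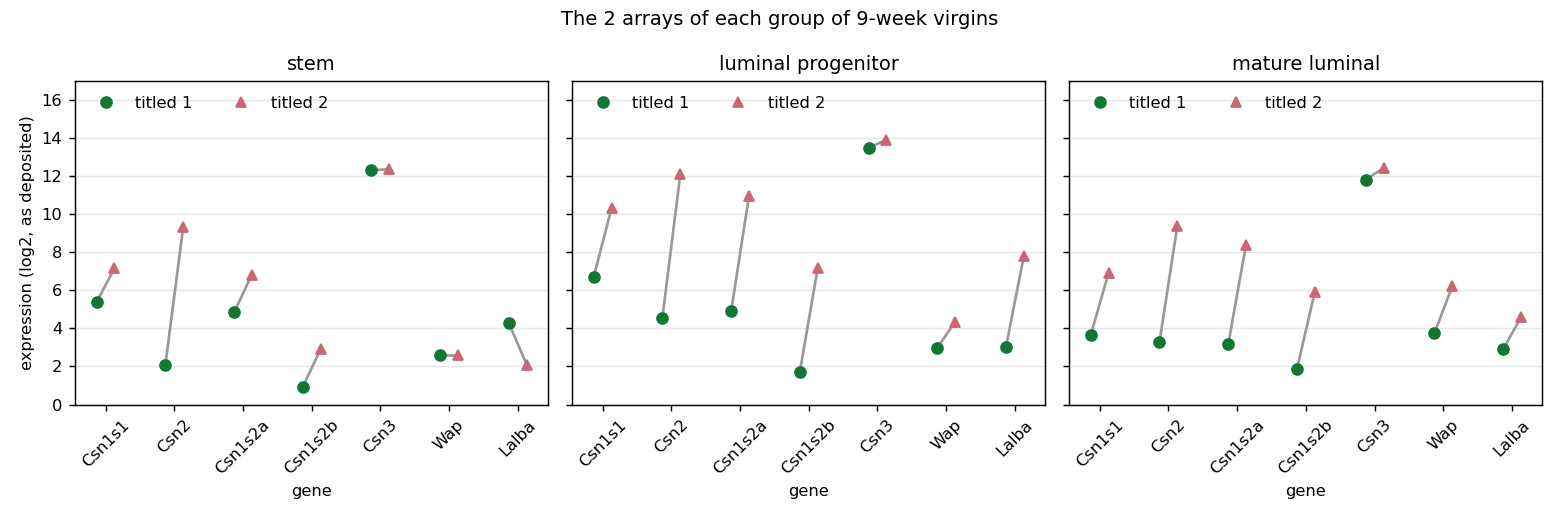
Log2 expression as deposited (vertical axis) of each gene (horizontal axis) on the 2 arrays of each group of 9-week virgins, joined by a line. Circles are arrays titled 1 and triangles arrays titled 2. Csn2 is higher on the array titled 2 by 7.26 log2 in stem cells, 7.53 in luminal progenitors and 6.11 in mature luminal cells.

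In mature luminal cells the pregnancy difference was larger between the arrays titled 1 for all 7 genes. In mature luminal cells at day 10 the difference of Csn2 from 9-week virgins was 9.97 log2 between the arrays titled 1 and 4.32 between those titled 2. For Csn1s2a it was 9.90 and 5.33, for Csn1s1 9.77 and 6.66, for Wap 3.50 and 1.11, for Lalba 3.30 and 3.21, for Csn1s2b 3.48 and 0.43, and for Csn3 2.03 and 1.19. Every gene was higher at day 10 within both numbers. In stem cells the same held, with Csn2 higher by 10.10 and 3.62 log2 and Csn3 by 0.03 and 0.32.

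Younger virgins did not pass as different. Averaged over cell types, all 7 genes read lower at 3 than at 9 weeks, by values from -0.27 (Csn1s2b) to -1.77 log2 (Csn2), and none passed (limma, 1 at an unadjusted p under 0.05, and 1674 of all genes) against 0.176% of all genes called. Csn2, for example, read 3.01 and 4.25 in luminal progenitors, 4.92 in mature luminal cells and 5.53 and 7.47 in stem cells of 3-week virgins. Csn1s1 read 6.82 and 5.06, 4.0 and 5.66 and 4.72 in the same order. On the 9-week arrays titled 1, Csn2 read 4.56, 3.28 and 2.07 and Csn1s1 6.70, 3.65 and 5.39 in that order. On those titled 2, Csn2 read 12.09, 9.39 and 9.33. The lower direction of Csn2 at 3 weeks thus rested on the 9-week arrays titled 2. Wap (2.45 to 4.0) and Lalba (2.88 to 4.04) were low on all 5 arrays, and Csn3 read 13.41 and 13.14 in luminal progenitors, 11.60 in mature luminal cells and 12.72 and 12.06 in stem cells.

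Retired breeders, whose glands have been through pregnancy, were set beside the virgins of 3 and 9 weeks. Csn1s1 read 12.40 in luminal progenitors, 9.78 in stem and 8.84 in mature luminal cells, above every virgin array of the same cell type in all 3. Csn2 read 12.43, 10.98 and 9.08 in the same order, above the virgin arrays in luminal progenitors and stem cells, and Csn1s2a (12.22, 10.88 and 8.0) did so in the same 2 cell types. Csn1s2b exceeded all virgin arrays in stem and mature luminal cells, Wap in luminal progenitors and stem cells, Csn3 in mature luminal cells, and Lalba in none. In all, 5 of 7 genes lay above the virgin arrays in stem cells, against 29.8% of all genes tested. In luminal progenitors it was 4 of 7 against 28.1%, and in mature luminal cells 3 of 7 against 18.1%. With so large a share of all genes there, a position above the virgin arrays is common on these single arrays.

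Averaged over cell types, none of these differences from 9-week virgins passed (limma, 4 at an unadjusted p under 0.05, and 1113 of all genes), against 0.0065% of all genes called higher. Csn2 differed by 4.04 ± 1.82 log2 (adjusted p = 0.674), Csn1s2a by 3.85 ± 1.37 (adjusted p = 0.663), Csn1s1 by 3.65 ± 0.85 (adjusted p = 0.592) and Csn3 by 0.08. Without the 3 arrays of 9-week virgins titled 2, Csn1s1 differed by 5.09 log2 and Csn2 by 7.53. This alternative was chosen because those arrays were seen to be high on these genes. A larger difference and a smaller spread followed from that choice, so these values are no test of retired breeders. The median difference of the 10 fibroblast and stromal markers in this comparison was 2.03 log2 and that of the 12 basal markers 1.27 log2, and their part in the result was not tested.

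**Figure D4:**
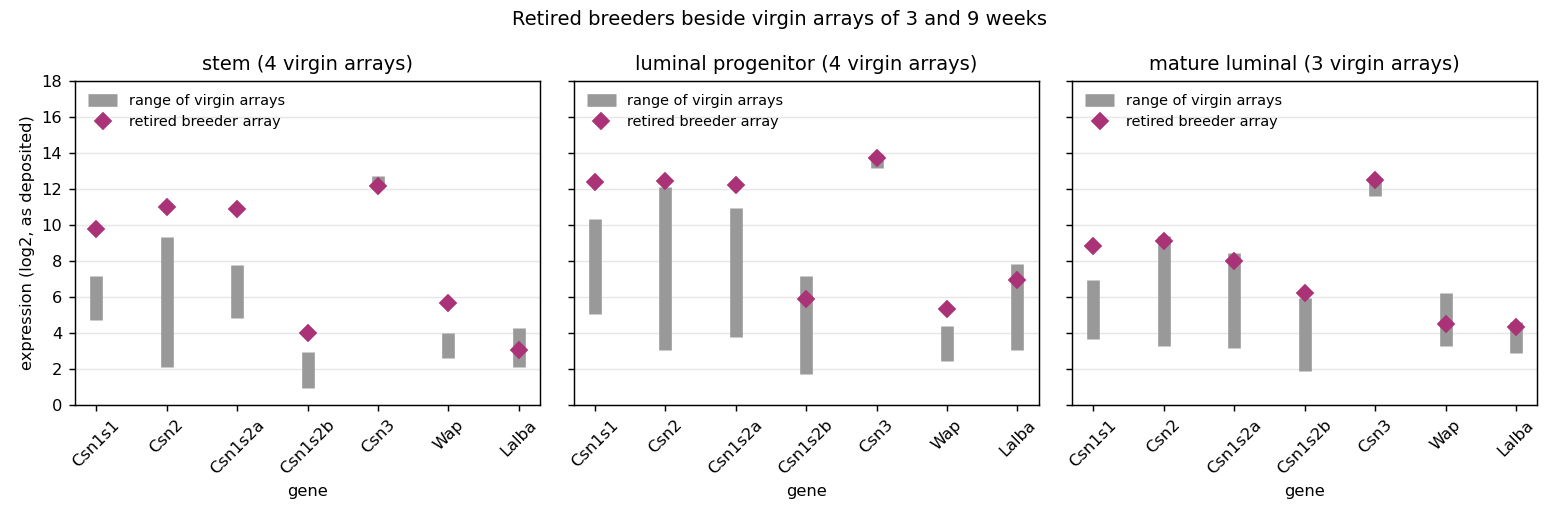
Log2 expression as deposited (vertical axis) of each gene (horizontal axis) on the retired breeder array of each cell preparation (diamonds), over the range of the 3-week and 9-week virgin arrays of the same preparation (grey bars, 4 arrays in stem cells and luminal progenitors and 3 in mature luminal cells). Csn1s1 lies above the grey bar in all 3 preparations.

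Between cell types, 1 member passed. Averaged over the 5 stages sampled in all 3 preparations, Csn3 was higher in luminal progenitors than in stem cells by 1.05 ± 0.16 log2 (adjusted p = 0.00675), 1 of 7 against 4.38% of all genes called in either direction. The other 6 were higher in luminal progenitors as well, by up to 2.48 log2 (Csn1s2b), without passing. Csn1s2b passed with unnumbered arrays as number 2 and the number as a block (2.28 ± 0.61, adjusted p = 0.0266), and without the 9-week luminal progenitor array titled 1 both Csn1s2b (3.03 ± 0.67, adjusted p = 0.0342) and Lalba (2.10 ± 0.50, adjusted p = 0.0443) passed. Without the 2 luminal progenitor arrays of pregnancy, over the 3 stages left, Csn3 was higher by 1.25 log2 (adjusted p = 0.0091) and Wap differed by -0.09 log2, against 0.27 with them.

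Between mature luminal and stem cells none of the 7 passed (limma, 1 at an unadjusted p under 0.05, and 3420 of all genes), against 8.34% of all genes called, although Csn1s2b did with the number as a block (1.96 ± 0.61, adjusted p = 0.0412). Between mature luminal cells and luminal progenitors none passed (limma, 2 at an unadjusted p under 0.05, and 726 of all genes), against 0.124% of all genes. Csn3 was 0.82 log2 lower in mature luminal cells, written -0.82 ± 0.16 (adjusted p = 0.0925, and 0.0235 with the number as a block). Without the 2 luminal progenitor arrays of pregnancy it was -1.48 log2 (adjusted p = 0.0779).

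Genes around the casein cluster and Wap were looked at for their own levels. Of 10 named neighbours, 5 were tested, and none was called in the average of pregnancy over 9-week virgins (limma, 3 at an unadjusted p under 0.05). Sult1d1, a sulfotransferase, differed by 2.67 log2 (adjusted p = 0.0961), Smr3a by -2.04 (adjusted p = 0.0860), Ramp3 by 0.71, Tbrg4 by 0.57 and Sult1e1, the oestrogen sulfotransferase, by -0.09. The neighbours of Wap thus differed by under 1 log2 where Wap differed by 5.96.

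Of 18 hormone receptors and transcription regulators of lactation, 16 were tested in the same comparison, with 1 higher, 3 lower and a median of 0.02 log2. Of all genes tested, 3.77% were higher and 3.36% lower in that comparison, which is the background of this list and of those that follow. Elf5, the factor of the alveolar lineage, rose by 3.38 ± 0.53 log2 (adjusted p = 0.00387). The progesterone receptor Pgr fell by 3.68 log2 (adjusted p = 0.00213), the oestrogen receptor Esr1 by 2.37 (adjusted p = 0.000849) and the kinase Jak2 by 1.32 (adjusted p = 0.00148). Stat5a (-0.52 ± 0.28) and Stat5b (0.22 ± 0.41) did not pass.

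Of 13 genes of lactose synthesis and casein phosphorylation, 12 were tested, with 2 higher and 1 lower. Those higher were the kinase Fam20c, which phosphorylates secreted caseins (2.44 ± 0.50, adjusted p = 0.0147), and its partner Fam20a (4.06 ± 1.07, adjusted p = 0.0424). Pgm2, a phosphoglucomutase, fell by 1.72 log2 (adjusted p = 0.0349).

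Of 18 other milk secretory proteins, 16 were tested, and 7 were higher and 0 lower, with a median of 1.41 log2. They were the lipase Cel (2.93, adjusted p = 0.00239), the immunoglobulin receptor Pigr (3.66, adjusted p = 0.00643), lactoperoxidase Lpo (4.22, adjusted p = 0.0112), Xdh of the milk fat globule (2.41, adjusted p = 0.0119), the mucins Muc1 (1.72, adjusted p = 0.0220) and Muc15 (2.73, adjusted p = 0.0249), and Wfdc18 (0.58, adjusted p = 0.0316). In the same average 4 of 12 basal markers, the smooth muscle genes Acta2, Myh11, Tagln and Cnn1, were higher by 1.76 to 2.77 log2.

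The members' group means were correlated over the 16 groups, given as a description, since the groups share stages and cell types. Pearson's r with the mean of the 7 centred genes was 0.967 for Csn1s1, 0.966 for Csn1s2a, 0.961 for Lalba, 0.947 for Csn2, 0.927 for Wap, 0.889 for Csn1s2b and 0.770 for Csn3, each gene being part of that mean. Among pairs of members the lowest r was 0.633, between Csn3 and Wap. Among all other genes kept, the 10 with the highest r to that mean were Bcl2l15 (0.983), Trim46 (0.971), Timd2 (0.955), Fads1 (0.948), Cel (0.943), Hhipl2 (0.940), Fads2 (0.934), Gpr180 (0.928), Muc15 (0.928) and Tnfsf13os (0.921). Bcl2l15, of the Bcl2 family, ran from 2.99 to 11.43 over the group means. Fads1 (6.66 to 11.90) and Fads2 (8.26 to 11.91) encode fatty acid desaturases, and Cel ran from 4.36 to 12.30. Under 6 other settings 7 to 10 of these 10 genes were again among the 10.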

How the data were processed

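Per the labels' protocols, messenger RNA of purified mammary cell preparations was labelled with biotin as cRNA for Affymetrix arrays. The authors deposited log2 expression values for 45101 probe sets on 23 arrays. That scale follows from their range (0 to 14.28, array medians 4.51 to 5.47). How probes were summarised, corrected and scaled is not given in the sources, so compression at both ends of the scale could shrink differences. Values were used as deposited, and for arrays their number limits the precision.

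Probe sets were named through the platform annotation: 34945 listed 1 symbol, 932 several and 9160 none. Each gene was represented by its probe set with the highest mean. Genes above the 40th percentile of their array on at least 2 arrays were kept (15378). A linear model with 1 mean for each of 16 groups was fitted with limma 3.58.1 (R 4.3.3) over all 23 arrays (eBayes with an intensity trend, 7 residual and 4.74 prior degrees of freedom), two-sided, adjusted by Benjamini-Hochberg over all genes kept. A lone array was taken to vary as arrays of the 7 groups of 2 do. Values after ± are standard errors. The fit was tested on simulated data.

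Of the arrays, 15 carry a replicate number in the title and 8 none. Same-numbered arrays deviated together from their group means (correlation 0.303 to 0.682 over all 21 pairs of groups, median 0.470), so the numbers were taken to pair arrays, from the data alone, and a fit with the number as a block was the alternative. Other alternatives were other scalings, filters, probe set rules, groups in the fit, and arrays left out. Members, gene lists and tests were chosen with earlier results of these data known, and the lists support nothing by themselves. All 7 members were tested in every comparison. The text names those that passed and, in several comparisons, only some of the others, chosen after their values were seen. Of each list the number called and up to 4 genes with the smallest p are named, except that all tested neighbours, all called milk proteins and basal markers, Stat5a and Stat5b are named, chosen after their values were seen. The 10 genes most like the members were taken by Pearson correlation over group means.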

Additional observations from a re-analysis of the deposited data

How the results depend on the processing

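Counts below are of the 7 milk protein genes past an adjusted p of 0.05 (limma). The share of all genes called under each alternative is not given here. A higher count may thus come from a fit that calls more genes of any kind. For mature luminal cells at day 10 (2 genes) the count was 1 with arrays centred on their medians, with quantile normalization, with the mean of a gene's probe sets, with the most variable probe set, without the intensity trend and with luminal progenitors left out of the fit, 0 with the compared groups alone, 4 under either replicate block, and 0 to 2 in leave-one-out fits. At day 16 (4 genes) it was 2 with the most variable probe set or without the trend and 2 to 4 leaving out 1 array, and at day 19 (5 genes) 2 without the trend and 2 to 5 leaving out 1 array. Between day 10 and day 19 (0 genes) it was 2 with values below the array median raised to it, 3 with the compared groups alone and 2 under either block. Luminal progenitors at day 10 (1 gene) had 2 with raised values or the mean of probe sets, 0 with the compared groups alone and 0 to 1 leaving out 1 array. Stem cells at day 10 (0 genes) had 1 with raised values and 2 under either block. At day 16 (1 gene) they had 2 with raised values, 3 with the compared groups alone, 3 under the block with unnumbered arrays as number 2, and 0 to 1 leaving out 1 array. The average of pregnancy (7 genes) had 4 to 7 leaving out 1 array. The average of day 16 over day 10 (0 genes) had 1 without the pregnant luminal progenitor arrays or with that cell type left out of the averages, and 0 to 1 leaving out 1 array. Luminal progenitors over stem cells (1 gene) had 0 with the most variable probe set, 2 under the block with unnumbered arrays as number 2, and 1 to 3 leaving out 1 array. Under that block mature luminal cells over stem cells and over luminal progenitors had 1 gene each, against 0. The blocks changed no other count by more than 1.5 times.

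Leaving out the 3 arrays of 9-week virgins titled 2 was an alternative added after seeing the data. Most members were high on those arrays, so this choice lowers the baseline and takes wide pairs out of the spread. More calls would follow from the choice itself, and a single array is left in each 9-week group. Its counts are therefore not given by themselves.

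Single values that changed sign, none of them called, were these. Csn3 in luminal progenitors was 0.03 at day 10, -0.075 with arrays centred and -0.19 to 0.25 leaving out 1 array. At day 16 it was -0.09, but 0.0728 with quantile normalization, 1.12 with the mean of its probe sets, 2.33 with the most variable one, 0.13 without the 9-week arrays titled 2, and -0.31 to 0.13 leaving out 1 array. Csn1s2b in stem cells at day 10 was 1.85, and -0.14 with low values raised. In mature luminal cells at day 10 it was -0.08 to 3.99 leaving out 1 array (1.96 with all arrays), and Lalba in retired breeders, at 0.64, was -0.16 to 1.44. The causes were not tested. Of 2659 values of 73 results, 2515 kept direction and side of the threshold, 79 lost it, 55 gained it and 10 reversed. These totals include the fit without the 9-week arrays titled 2. Gains there follow from that choice, so the 55 are no support for the calls. Differences near the top of the scale, and levels near background, limit how exact any fold is.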
